A study of Mus musculus with 83 samples.

Results

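*Mir770*, *Mir673*, *Mir493*, *Mir337*, *Mir540* and *Mir665* are miRNA genes that lie between the start of *Meg3* and the start of *Rtl1* in the imprinted Dlk1-Dio3 domain of mouse chromosome 12. They were taken by name and position and are 6 of the 32101 features of the deposited small RNA table. Their levels were followed in embryonic stem cells (ESCs, cells of the early mouse embryo kept in culture) that carry loxP sites around *Dnmt1*, in which tamoxifen-induced Cre recombinase removes the gene, and in control cells. *Dnmt1* encodes the enzyme that copies DNA methylation onto the new strand after replication, and the study deleted it to imitate the demethylation of the early embryo and germline. The time course held 36 libraries of total small RNA, with 3 control and 3 Dnmt1 KO libraries on each of days 1, 3, 6, 9, 11 and 25. A further 8 libraries came from AGO2 pull-downs (4 control and 4 Dnmt1 KO), made at day 9. Another 4 came from primordial germ cells (PGCs, the embryonic cells that later form gametes) of female and male embryos of days E13.5 and E14.5. Of the other libraries, 33 repeat the names of time course or PGC libraries with an R1 suffix, and 2 are labelled "none". Among the R1-suffixed libraries, the controls of day 11 are titled WT instead of control.

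The labels give the ESC background as E14, whereas the study describes the loxP line as C57BL/6. Cells were kept in serum with LIF, with or without feeder cells. PGCs were sorted from embryos that carry a germ cell GFP reporter, with 1 library per sex and stage. Samples were grouped by title. Genotype tags of the AGO2 and "none" libraries, and of the R1-suffixed libraries of days 1 to 9, contradict their titles. Nothing in the labels says that replicates came from separate cultures, so the p-values measure the spread between these samples, which may be technical.

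The Dlk1-Dio3 domain is expressed by parent of origin. The chromosome from the mother makes a series of non-coding RNAs, *Meg3*, *Rian* and *Mirg* among them, together with a long array of miRNAs, whereas the chromosome from the father makes the proteins *Dlk1*, *Rtl1* and *Dio3*. The domain's control region lies upstream of *Meg3* and is methylated on the paternal chromosome. In pluripotent cell lines the maternal RNAs are known to vary in level between lines. A miRNA gene gives a hairpin RNA, from which the enzyme DICER releases a short duplex. Argonaute proteins such as AGO2 load a strand of it, and the seed, bases 2 to 8 of that strand, pairs with target mRNAs.

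All 6 genes lie on the plus strand (NCBIM37). *Mir770* occupies chr12:110801902-110801995 inside *Meg3*, where it is exonic in 1 and intronic in 2 of the 3 *Meg3* transcripts that overlap it. *Mir673* (chr12:110810200-110810290) and *Mir493* (chr12:110818443-110818525) follow downstream of *Meg3*. *Mir337* (chr12:110824000-110824096), *Mir540* (chr12:110824281-110824364) and *Mir665* (chr12:110824524-110824617) sit close together before *Rtl1*. No other annotated gene overlaps these last 5. The interval from the start of *Meg3* to *Rtl1* holds 10 features, of which 4 are not members. These are *Mir1906-1*, *AC152063.2* and *AC152063.3*, annotated as miRNAs, and *Gm17639*, annotated as a long non-coding RNA. *AC152063.2* and *AC152063.3* lie between *Mir665* and *Rtl1*.

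The mature miRNAs of the 6 genes are shown to identify what the values count, since the table gives a value for the whole hairpin feature and does not separate its arms. The sequences are from RefSeq (GRCm38.p6), 5′ to 3′, with the seed in capitals. All 12 lie inside their feature in NCBIM37 and each has 1 exact copy in that genome.
miR-770-5p: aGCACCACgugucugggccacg
miR-770-3p: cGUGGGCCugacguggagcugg
miR-673-5p: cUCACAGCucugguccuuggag
miR-673-3p: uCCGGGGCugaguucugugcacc
miR-493-5p: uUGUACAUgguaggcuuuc
miR-493-3p: uGAAGGUCcuacugugugccagg
miR-337-5p: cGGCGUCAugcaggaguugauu
miR-337-3p: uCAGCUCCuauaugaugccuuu
miR-540-5p: cAAGGGUCacccucugacucugu
miR-540-3p: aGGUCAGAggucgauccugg
miR-665-5p: aGGGGCCUcugccucuauccaggauu
miR-665-3p: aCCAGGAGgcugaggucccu
The 12 seeds are all different, so the genes share a neighbourhood but no seed. Among 1679 mature mouse miRNAs, the seed of miR-673-5p recurs in miR-6985-3p and that of miR-540-3p in miR-6915-5p, and the other seeds occur nowhere else. Reads of 20 to 24 nt were kept by the authors. The listed miR-493-5p (19 nt) and miR-665-5p (26 nt) fall outside that window at their full annotated length.

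Depth ran from 521066 to 815523 reads per library on day 25, from 870481 to 6239009 on days 1 to 11, from 1152390 to 11520132 in AGO2 Dnmt1 KO and from 11497719 to 25423032 in AGO2 control. Levels are given as RPM, the reads of a feature scaled to a library of 1e+06 reads. Small RNA reads over *Dnmt1* ran from 23.1 to 95 RPM in control and from 18.1 to 64.3 RPM in Dnmt1 KO libraries (n = 18 each); such reads of 20 to 24 nt do not measure the mRNA and do not show whether the gene was lost. A list of 12 ESC miRNAs (the miR-290 and miR-302 clusters) summed to between 110800 and 209800 RPM in the 36 ESC libraries and to between 12190 and 24380 RPM in the PGCs.

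From day 6 onwards all 6 miRNA genes were higher in Dnmt1 KO than in control ESCs. On day 1 the summed levels of the genotypes overlapped. On day 3 the 6 genes summed to 131.5 to 152.2 RPM in Dnmt1 KO and 79.2 to 87.7 RPM in control, a smaller gap than on later days. Their summed level in Dnmt1 KO was 113 ± 8.63 RPM on day 1 (mean ± SD, n = 3 as for all time course groups), 145 ± 11.6 on day 3, 985 ± 57.3 on day 6, 1916 ± 24.5 on day 9, 1571 ± 208 on day 11 and 2970 ± 53.0 on day 25. In control cells it was 118 ± 10.8, 83.2 ± 4.25, 39.1 ± 2.13, 116 ± 14.3, 58.4 ± 7.75 and 2.33 ± 3.03 RPM on the same days. On the log2(RPM + 1) scale, *Mir540*, *Mir673* and *Mir665* changed most on days 6 to 11, and *Mir493* and *Mir770* least, although in ratios of the means *Mir770*, the rarest, stood above *Mir493*. In bulk libraries, more cells that make a miRNA and more of it per cell cannot be told apart.

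**Figure D1:**
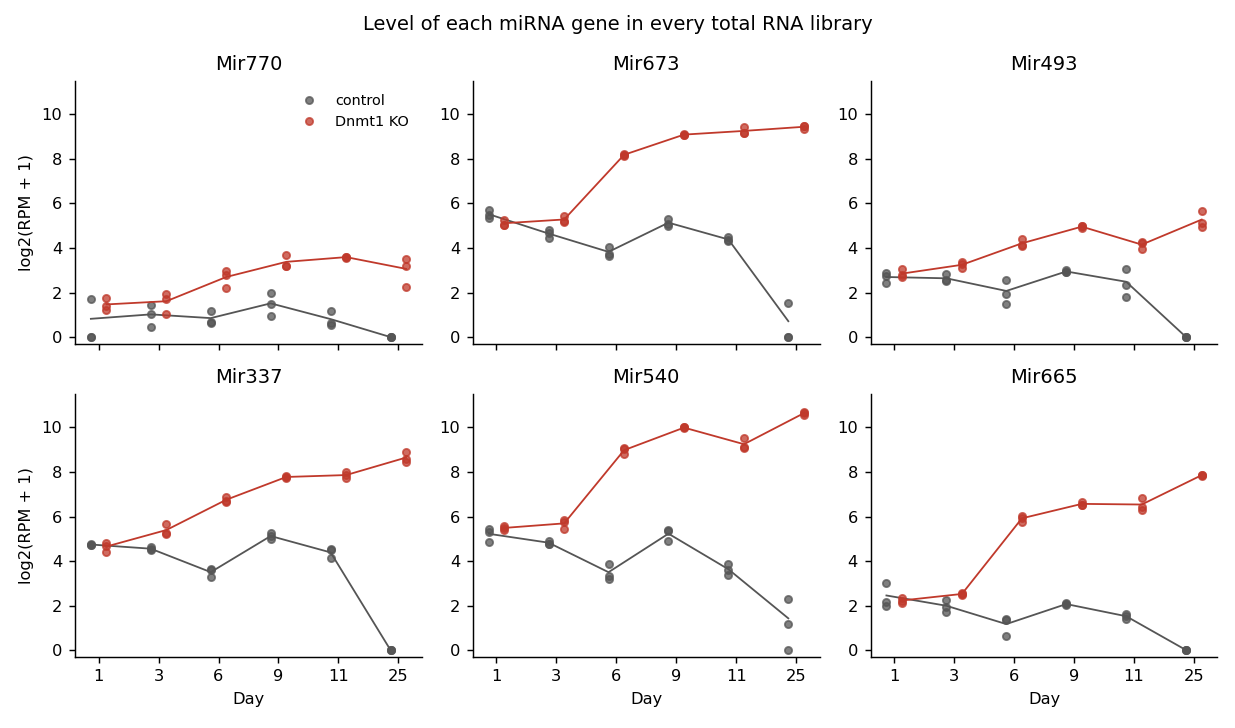
Level of each of the 6 miRNA genes in the 36 total RNA libraries, as log2(RPM + 1), against day (days are evenly spaced categories, not to scale). Points are libraries, grey for control and red for Dnmt1 KO, and lines join the group means; the genotypes lie close together on days 1 and 3 and do not overlap in any panel on days 6, 9, 11 and 25.

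Each comparison came from a limma fit over 2582 features, in which a feature was called at an adjusted p under 0.05. On day 6, all 6 members were called higher, against 13.7% of all features tested called higher. The same held on day 9 (12.3% of all features), day 11 (6.27%) and day 25 (18%). In each of these comparisons all Dnmt1 KO libraries lay above all control libraries for every member, as they did for 25.9% of all features on day 6, 28.7% on day 9, 14.9% on day 11 and 16% on day 25. *Mir673*, *Mir337* and *Mir540* reached the required 10 RPM in libraries of both genotypes. *Mir770*, *Mir493* and *Mir665* reached it only in Dnmt1 KO libraries (5, 12 and 12 of them), all of day 6 or later, so that for these members inclusion in the fit itself depended on the high group.

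*Mir770*, the member inside *Meg3*, was the rarest of the 6. On day 6 the Dnmt1 KO libraries held 3.67, 6.01 and 6.82 RPM, against 0.610, 1.24 and 0.567 RPM in control. On day 9 they held 11.95, 8.09 and 8.17 RPM against 2.90, 1.76 and 0.909, and on day 11 they held 11.12, 10.8 and 11.27 RPM against 0.539, 0.477 and 1.24. The control values rest on 1 to 12 reads each. The fitted log2 fold change (on the log2(RPM + 1) scale, which understates changes of rare features) was 1.78 ± 0.414 (± SE) on day 6 (adjusted p = 0.00115), 2.02 ± 0.414 on day 9 and 2.88 ± 0.414 on day 11, and the means differed 6.83-fold, 5.06-fold and 14.7-fold. A read of *Mir770* also counts for *Meg3*: of the reads over *Meg3* in Dnmt1 KO, *Mir770* held 42.4% on day 6, 44.6% on day 9, 51.8% on day 11 and 28.8% (15 of 52 reads) on day 25.

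*Mir673*, the first hairpin downstream of *Meg3*, was among the most abundant. Dnmt1 KO libraries held 299, 293 and 280 RPM on day 6, 559, 538 and 540.5 RPM on day 9, and 686, 581 and 570 RPM on day 11. Control libraries held 15.6, 11.6 and 12.5 RPM on day 6, 38.5, 33.2 and 31.1 RPM on day 9, and 21.3, 18.6 and 19.8 RPM on day 11. Each genotype was tight and the gap between them wide: the means differed 22.0-fold, 15.9-fold and 30.8-fold. The log2 fold changes were 4.27, 4.08 and 4.95, each with an SE of 0.206, and the largest adjusted p was 2.76e-19.

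*Mir493* showed a smaller change from a low control level. Dnmt1 KO libraries held 16.3, 16.1 and 20.1 RPM on day 6, 30.9, 29.1 and 30.5 RPM on day 9, and 18.0, 14.49 and 17.9 RPM on day 11. In control libraries the values were 1.83, 4.95 and 2.83 RPM, then 6.53, 6.53 and 7.09 RPM, then 7.27, 4.05 and 2.47 RPM. The means differed 5.47-fold, 4.49-fold and 3.65-fold, with log2 fold changes of 2.12, 2.13 and 1.83 (SE 0.264), and the largest adjusted p was 8.42e-07. With the R1-suffixed libraries in place of their namesakes, the day 6 call was lost (adjusted p = 0.0537).

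*Mir337* had a control mean near that of *Mir540* on day 6 (10.3 RPM each) and day 9 (33.9 and 36.5 RPM), and a higher one on day 11 (19.9 and 11.4 RPM). It differed less between genotypes on all 3 days. Dnmt1 KO libraries held 98.7, 118 and 104 RPM on day 6, 218, 212 and 224 RPM on day 9, and 251, 235 and 209 RPM on day 11. Control libraries held 10.99, 8.67 and 11.33 RPM, then 37.2, 33.9 and 30.5 RPM, then 22.1, 21.2 and 16.5 RPM. These are 10.4-fold, 6.44-fold and 11.6-fold differences of the means. The log2 fold changes of 3.16, 2.77 and 3.56 had the smallest SE of the members (0.151), and the largest adjusted p was 2.52e-18.

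*Mir540* reached the highest level of the 6. Dnmt1 KO libraries held 547, 519 and 447 RPM on day 6, 1027, 1033 and 996 RPM on day 9, and 729, 559 and 532 RPM on day 11. Control libraries held 8.24, 9.08 and 13.6 RPM on day 6, 41.4, 39.7 and 28.5 RPM on day 9, and 13.7, 10.97 and 9.48 RPM on day 11. The lowest Dnmt1 KO library of these days was thus more than 10 times above the highest control library. The log2 fold changes were 5.41, 4.90 and 5.70 (SE 0.259), for ratios of the means of 48.9, 27.9 and 53.3, with a largest adjusted p of 1.16e-18.

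*Mir665*, the last of the 6 before *Rtl1*, was rare in control cells and changed almost as much as *Mir540*. Dnmt1 KO libraries held 53.3, 64.5 and 60.7 RPM on day 6, 90.6, 100.4 and 90.6 RPM on day 9, and 112, 85.7 and 78.2 RPM on day 11. In control libraries 1 to 19 reads each gave 1.53, 1.65 and 0.567 RPM, then 3.14, 3.35 and 3.09 RPM, then 1.88, 1.67 and 2.06 RPM. The log2 fold changes were 4.72, 4.63 and 5.08 (SE 0.235), with a largest adjusted p of 3.27e-19. The means differed 47.7-fold, 29.4-fold and 49.2-fold, close to the ratios of *Mir540*.

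**Figure D2:**
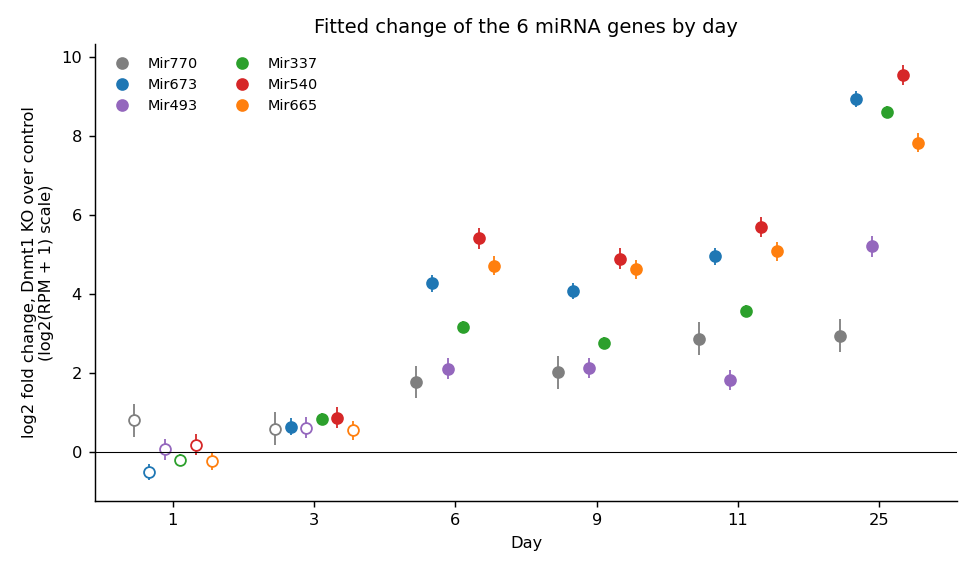
Fitted log2 fold change of Dnmt1 KO over control on the log2(RPM + 1) scale for each member and day (days are categories; points of a day are set side by side). Bars are the SE of the fit, filled points have an adjusted p under 0.05 over all 2582 features and open points do not; the 3 filled points of day 3 lie between 0.65 and 0.88, and those of day 6 between 1.78 and 5.41, while the values of day 25, with at most 3 control reads a member, depend on the pseudocount of 1 RPM and are no measure of size.

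On day 1 no member was called, where 3.8% of all features tested were, and 1 of the 6 had an unadjusted p under 0.05. That member, *Mir673*, held 37.6, 31.4 and 31.9 RPM in Dnmt1 KO and 44.1, 50.5 and 40.2 RPM in control, so that the Dnmt1 KO libraries were all lower, as for 8.52% of all features (log2 fold change −0.49 ± 0.206, adjusted p = 0.233). With a pseudocount of 5 RPM it was called (adjusted p = 0.0359). The other 5 overlapped between genotypes, with log2 fold changes from −0.22 (*Mir665*) to 0.81 (*Mir770*, 15 reads in Dnmt1 KO against 2 in control).

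On day 3, *Mir673*, *Mir337* and *Mir540* were called higher in Dnmt1 KO (3 of 6, against 4.49% of all features). *Mir337* held 49.5, 36.6 and 37.1 RPM in Dnmt1 KO and 23.7, 22.3 and 21.6 RPM in control (log2 fold change 0.84 ± 0.151, adjusted p = 0.000183). For *Mir540* the values were 52.5, 43.0 and 56.6 RPM against 26.5, 28.9 and 26.6 RPM (0.88 ± 0.259, adjusted p = 0.0316). For *Mir673* they were 35.8, 35.2 and 42.8 RPM against 21.2, 26.8 and 24.4 RPM (0.65 ± 0.206, adjusted p = 0.0497). The 3 others had log2 fold changes of 0.56 to 0.63 and did not pass. The genotypes did not overlap for 5 of 6, all but *Mir770*, as for 13.8% of all features. With a library of day 3 left out, the call of *Mir673* was always lost (adjusted p = 0.0588 to 0.217), that of *Mir540* was lost (0.0713 to 0.147) unless the library was Dnmt1 KO replicate 2, and that of *Mir337* remained. With the R1-suffixed libraries none of the 5 members tested was called on day 3. Those time course libraries are shallower, at 278508 to 1994554 reads. Their values were 1.36 ± 0.473 for *Mir673*, 1.14 ± 0.449 for *Mir540* and 0.64 ± 0.341 for *Mir337*.

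Markers of fibroblasts and stroma, cells that feeder layers are made of, moved in the same direction on day 3. Of the 6 features on that list (*Mir143*, *Mir145*, *Mir199a-1*, *Mir199a-2*, *Mir214* and *Mir21*), *Mir199a-1* had no reads in these libraries and 5 were tested. On day 1 none of them was called. On day 3, 4 of 5 were called higher in Dnmt1 KO, with a median log2 fold change of 0.665 over the 5, against 0.638 over the 6 members and −0.0225 over all features. Their summed level on that day was 22850 to 23330 RPM in control and 34070 to 44690 RPM in Dnmt1 KO. On days 6, 9 and 11, 4, 4 and 3 of the 5 were called higher, with medians of 0.519, 0.861 and 0.434, where the medians over the members were 3.72, 3.43 and 4.26. What part these cells have in the levels of the members was not tested.

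Of the blood list (5 features), 2 were tested, and both were called higher on days 6 and 11 and 1 on days 1 and 9. On day 3 none was called, and on day 25 none was called higher and *Mir142* was called lower (−0.418). The summed level of the blood list on day 6 was 1479 to 1778 RPM in control and 2221 to 2632 RPM in Dnmt1 KO, and its part in the results was not tested either. Of the 12 ESC miRNAs, 2 were called higher and 5 lower in Dnmt1 KO on days 6 and 9, with medians of −0.0133 and −0.141. On day 25, 9 were called lower and 0 higher (median −0.545). On day 1, 1 was called higher, on day 3, 1 higher and 2 lower, and on day 11 none. What these changes mean for the levels of the members was not tested. The neural list stayed at or under 11.4 RPM and the muscle list at or under 0.678 RPM in all 36 libraries.

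On day 25 the control libraries held next to no reads of the 6 genes while 5 of the 6, all but *Mir770*, had their highest mean level of the time course in Dnmt1 KO. In control, *Mir540* had 0, 2 and 1 reads and *Mir673* 0, 1 and 0 reads, and the other 4 had none, which allows 1.58 RPM for each (3 reads over the libraries of the group). In Dnmt1 KO, *Mir540* held 1593, 1519 and 1679 RPM, *Mir673* 719, 652 and 718 RPM, and *Mir337* 381, 470 and 351 RPM. The rarer *Mir665* held 227, 233 and 233 RPM, *Mir493* 49.8, 29.5 and 34.1 RPM and *Mir770* 8.04, 10.3 and 3.79 RPM (5, 8 and 2 reads).

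Relative to that floor, the mean of *Mir337* was at least 253-fold higher in Dnmt1 KO, that of *Mir665* at least 146-fold, that of *Mir493* at least 23.9-fold and that of *Mir770* at least 4.65-fold. Over pooled reads, *Mir540* was higher by a ratio of 1002 (3063 against 3 reads, exact 95% interval 342.5 to 4861) and *Mir673* by a ratio of 1310 (1335 against 1 read, 235 to 51780). These intervals cover counting error only. All 6 were called, with a largest adjusted p of 3.21e-07 (*Mir770*).

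The fibroblast and stroma markers had also fallen by day 25, in both genotypes. All 5 tested were lower on day 25 than on day 1 in control (median log2 fold change −3.48) and lower on day 25 than on day 11 in Dnmt1 KO (−3.47). *Mir214*, which fell most, averaged between 63.7 and 205 RPM on days 1 to 11 in control and 0.598 RPM on day 25. In Dnmt1 KO it averaged between 126 and 289 RPM, and then 2.13 RPM on day 25. *Mir143* went from 9691 RPM on day 1 to 951 RPM on day 25 in control and from 13170 RPM on day 11 to 1231 RPM in Dnmt1 KO. Between genotypes on day 25, 3 of the 5 markers were called higher in Dnmt1 KO and 2 lower. Higher were *Mir143* (0.484 on the log2 scale), *Mir214* (1.104, on 4 reads against 1) and *Mir199a-2* (0.834, on 2 reads against 0). Lower were *Mir145* (−0.413) and *Mir21* (−0.342). With so few reads, the values of *Mir214* and *Mir199a-2* depend on the pseudocount. *Mir21* averaged 10720 RPM on day 11 and 6268 RPM on day 25 in Dnmt1 KO, and the whole list still summed to 6923 to 8020 RPM in Dnmt1 KO and to 8945 to 10080 RPM in control on day 25. The part of these cells in the levels of day 25 was not tested.

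**Figure D3:**
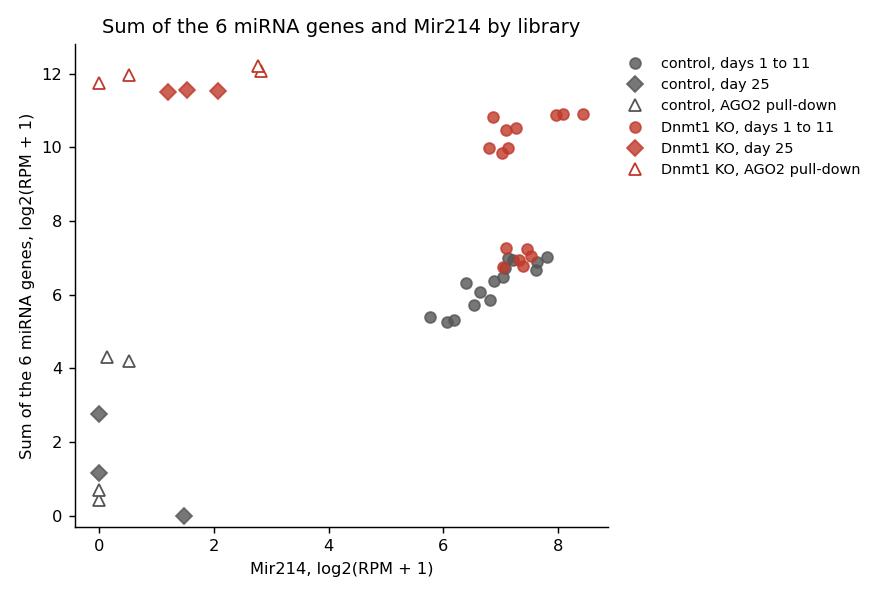
Summed level of the 6 miRNA genes against that of *Mir214*, a fibroblast marker, both as log2(RPM + 1), in 44 libraries: filled circles are total RNA of days 1 to 11, diamonds day 25 and open triangles AGO2 pull-downs, grey for control and red for Dnmt1 KO. Control libraries of day 25 and of the pull-down hold at most 1.79 RPM of *Mir214* and at most 18.7 RPM of the 6 genes. The corresponding Dnmt1 KO libraries hold 0 to 6.07 RPM of *Mir214* and at least 2914 RPM of the 6. Other markers are not shown, and *Mir21* and *Mir143* stayed far higher than *Mir214* in these groups. Means of *Mir21* (control, then Dnmt1 KO) were 8567 and 6268 RPM on day 25 and 8690 and 18630 RPM in pull-downs. Those of *Mir143* were 951 and 1231 RPM, then 1554 and 4054 RPM. *Mir145* averaged 23.4 to 45.2 RPM, and *Mir199a-2*, low like *Mir214*, at most 0.963 RPM.

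Within genotypes, the spans tested were unlike: day 25 against day 1 in control, and day 11 against day 1 in Dnmt1 KO. The summed level in control did not fall steadily, with 118 RPM on day 1 and 116 RPM on day 9. In control cells, 5 of 6 were called lower on day 25 than on day 1, against 28.1% of all features called lower. *Mir770* had 2 reads on day 1 and 0 on day 25, and was not called. *Mir337* on day 25 was at most 0.0614 of its day 1 level, *Mir493* at most 0.289 and *Mir665* at most 0.354. The pooled ratio was 0.0114 for *Mir673* (exact 95% interval 0.000288 to 0.0643) and 0.0411 for *Mir540* (0.00841 to 0.122). In Dnmt1 KO all 6 were higher on day 11 than on day 1 (14.1% of all features called higher), with log2 fold changes from 1.45 ± 0.264 for *Mir493* to 4.43 ± 0.235 for *Mir665*. With the R1-suffixed libraries, 4 of the 5 tested were called, and *Mir493* was not (1.07, adjusted p = 0.465).

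From day 11 to day 25 in Dnmt1 KO, 4 of 6 rose further, against 24.5% of all features called higher. These were *Mir540* (1.31 ± 0.259, adjusted p = 4.42e-05), *Mir665* (1.24 ± 0.235, adjusted p = 2.37e-05), *Mir493* (1.01 ± 0.264, adjusted p = 0.00147) and *Mir337* (0.69 ± 0.151, adjusted p = 0.00019). *Mir673* stayed level (0.10 ± 0.206, adjusted p = 0.721) and *Mir770* had a value of −0.70 ± 0.414 (adjusted p = 0.158). The calls of *Mir337* and *Mir493* were lost without the filter on low values (adjusted p = 0.464 and 0.222). Depth also differed, with at most 815523 reads per library on day 25.

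The change of the Dnmt1 KO effect from day 1 to day 11 was tested as an interaction and was called for all 6, against 6.04% of all features called in that direction. It was 5.50 ± 0.366 for *Mir540*, 5.45 ± 0.291 for *Mir673*, 5.30 ± 0.332 for *Mir665*, 3.75 ± 0.213 for *Mir337*, 2.07 ± 0.585 for *Mir770* and 1.75 ± 0.373 for *Mir493* on the log2 scale. The adjusted p was 0.016 for *Mir770* and at most 0.000786 for the others. The call of *Mir770* rested on 1 control library of day 1, which held its only 2 reads: without that library the adjusted p was 0.0902. It also missed the threshold without the filter (0.0837), with a filter at 1 RPM (0.0568), with a pseudocount of 0.5 (0.0898) and with voom on the reads (0.123), and that of *Mir493* missed it with the R1-suffixed libraries (0.695).

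Ordered by mean level over the 12 total RNA groups, each member was lowest in control of day 25 and had its 4 highest groups in Dnmt1 KO of days 6, 9, 11 and 25. For *Mir673*, *Mir493*, *Mir337*, *Mir540* and *Mir665* the highest group was day 25, and for *Mir770* it was day 11. Neighbours in this order often overlapped: of 11 neighbouring pairs, 9 overlapped for *Mir770*, 7 for *Mir493*, 6 for *Mir540*, 5 for *Mir673* and *Mir337* and 4 for *Mir665*. The step between the low groups and Dnmt1 KO of day 6 was free of overlap for 5 members, and for *Mir493* the corresponding step led to day 11 of Dnmt1 KO. For the sum of the 6, only the pairs among Dnmt1 KO of day 1 and control of days 9 and 1 overlapped.

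Compared per length, the members kept the same order in Dnmt1 KO of day 25: 19013 ± 954 RPKM (RPM per kilobase of feature) for *Mir540*, 7651 ± 422 for *Mir673*, 4129 ± 640 for *Mir337*, 2457 ± 39.5 for *Mir665*, 455 ± 129 for *Mir493* and 78.3 ± 34.9 for *Mir770*. In control of day 1 *Mir673* led with 494 ± 57.0 RPKM, ahead of *Mir540* with 433 ± 93.5 and *Mir337* with 266 ± 6.18.

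The share of each member in the signal of the 6 varied between groups. *Mir540* gave 30.7 ± 4.49% of the RPM of the 6 in control of day 1 and 38.8 ± 1.93% in Dnmt1 KO. In Dnmt1 KO it gave 51.1 ± 2.54% on day 6, 53.2 ± 0.571% on day 9 and 53.8 ± 1.76% on day 25, but 38.5 ± 1.61% on day 11. *Mir337* took 22.0 ± 2.63 to 34.1 ± 2.77% in control of days 1 to 11. In Dnmt1 KO it took 21.3 ± 2.97% on day 1 and 28.3 ± 3.995% on day 3, within the range of control, and 10.9 ± 1.04 to 14.8 ± 0.96% on days 6 to 25. On day 11 in Dnmt1 KO, *Mir673* (39.1 ± 1.12%) and *Mir540* were equal within their spread.

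**Figure D4:**
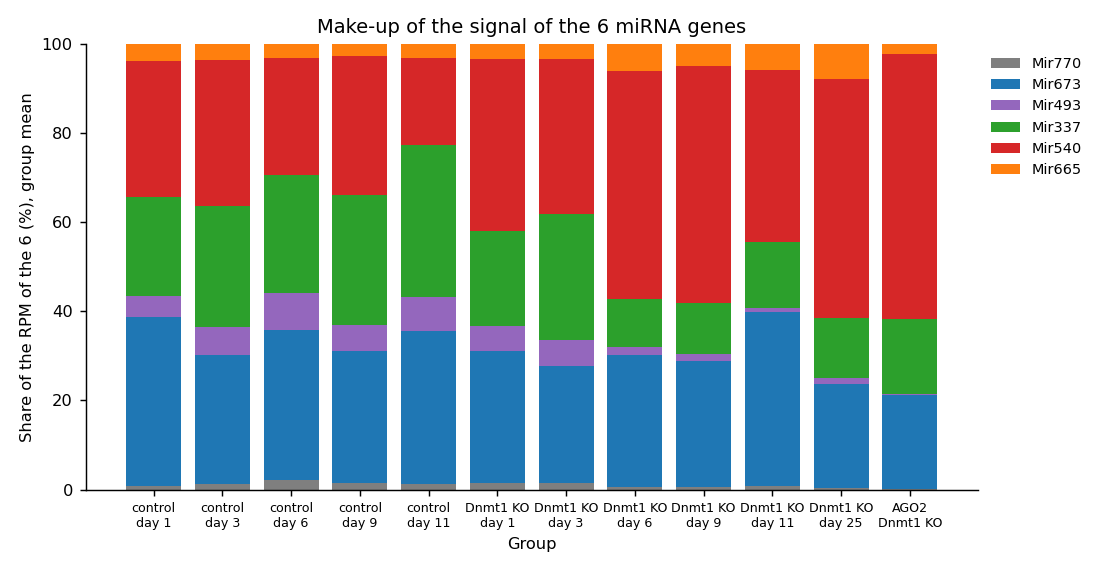
Share of each member in the RPM of the 6 miRNA genes, in percent, as means over the libraries of a group (3 libraries, or 4 for AGO2); control of day 25, which holds 4 reads in all, and AGO2 control are left out. *Mir540* takes 51.1 to 53.8% in Dnmt1 KO on days 6, 9 and 25 and 59.5% in the Dnmt1 KO pull-down.

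The hosts and neighbours of the domain moved with the 6 members. *Meg3*, the non-coding RNA around *Mir770*, held 12.9 ± 1.40 RPM in Dnmt1 KO and 1.81 ± 0.396 RPM in control on day 6, and 26.8 ± 4.82 RPM and no reads on day 25. It was called from day 6 on (log2 fold change 2.24 ± 0.328, adjusted p = 9.02e-07 on day 6) and not on day 3 (0.26 ± 0.328, adjusted p = 0.738). *Rian* and *Mirg*, the non-coding RNAs that host the downstream miRNAs, and *Rtl1*, whose antisense strand holds others, were called higher on day 3 (0.63, 0.82 and 0.69) and on day 6 (2.83, 3.61 and 3.06). Reads of the miRNAs inside these hosts count for the hosts too. *Dlk1* and *Dio3*, the paternally expressed genes at the ends of the domain, had at most 8 reads in any total RNA group and were not tested.

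Of the miRNAs further along, 5 of 5 tested opposite *Rtl1*, 2 of 2 in *Rian* and 27 of 27 in *Mirg* were called higher in Dnmt1 KO on days 6, 9, 11 and 25. Their median log2 fold changes on day 6 were 2.56, 4.33 and 3.21, against 3.72 over the 6 members and 0.14 over all features. The smallest change in the *Mirg* group was 1.90 (*Mir496*) and the largest 6.16 (*Mir758*), and opposite *Rtl1* they were 2.46 (*Mir136*) and 3.21 (*Mir127*). On day 3, 2 of 5, 2 of 2 and 13 of 27 were called higher, and on day 1 only *Mir543* of the *Mirg* group was. No difference between the 6 members and these neighbours was tested.

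Over the 36 total RNA libraries the level of each member was most like that of a feature inside the domain: *Meg3* for *Mir770* (r = 0.95, with shared reads), *Mir369* for *Mir673* (r = 0.987) and *Mir337* (r = 0.995), *Mir341* for *Mir493* (r = 0.978), *Mir758* for *Mir540* (r = 0.985) and *Mir323* for *Mir665* (r = 0.99). Between members, r ran from 0.855 (*Mir770* and *Mir493*) to 0.982 (*Mir673* and *Mir540*). Outside the domain the most alike features were *Mir470* and *Mir463* on chromosome X (r = 0.873 to 0.909). These values are a description over libraries that share groups and depth.

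AGO2 pull-downs were compared to ask which of these miRNAs were bound to Argonaute. The summed level of the 6 was 4297, 4704, 3449 and 3970 RPM in the 4 Dnmt1 KO pull-downs and 18.7, 17.3, 0.340 and 0.629 RPM in the 4 control pull-downs. *Mir540* held 2173, 2824, 2044 and 2706 RPM in Dnmt1 KO against 10.7, 8.18, 0.146 and 0.275 RPM in control. *Mir673* held 1255, 952.5, 590 and 683 RPM against 5.14, 4.18, 0.0485 and 0.0393 RPM. Every Dnmt1 KO pull-down was thus far above every control, and control replicates 1 and 2 were above 3 and 4.

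*Mir337* held 771, 810, 683 and 491 RPM in Dnmt1 KO and 2.57, 4.87, 0.146 and 0.315 RPM in control. *Mir665* held 73.8, 90.7, 107.6 and 70.9 RPM against 0.230, 0.0870, 0 and 0 RPM, and *Mir493* held 18.2, 19.3, 10.97 and 11.9 RPM against 2 reads in 1 control library. *Mir770* held 6.94, 7.72, 13.9 and 7.64 RPM (155 reads) and no read in 4 control pull-downs, at least 239.5-fold higher relative to a floor of 0.0378 RPM. It missed the 10 RPM filter and was not tested.

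All 5 members tested were called higher in the Dnmt1 KO pull-down, against 24.8% of 456 features called higher, and 24.8% had pull-downs that did not overlap in that direction. Each of the 5 reached 10 RPM in all 4 Dnmt1 KO pull-downs, and in control only *Mir540* did so, in 1 library. The log2 fold changes were 9.25 ± 0.766 for *Mir540*, 8.27 ± 0.641 for *Mir673*, 7.99 ± 0.506 for *Mir337*, 6.18 ± 0.198 for *Mir665* and 3.81 ± 0.204 for *Mir493*, with a largest adjusted p of 7.82e-06. These values are limited by the pseudocount where control is below 1 RPM, and in ratios of the means the order was another: 1083 for *Mir665* (6 control reads), 506 for *Mir540*, 370 for *Mir673* and 348.5 for *Mir337*. For *Mir493* the ratio of pooled reads was 506.9 (225 against 2 reads, exact 95% interval 138.7 to 4211), and its log2 value ran from 1.88 with a pseudocount of 5 to 8.16 with voom on the reads. Within replicates 1 and 2 the value of *Mir540* was 7.48 ± 0.238, and within replicates 3 and 4 it was 10.70 ± 0.288. These subsets were not planned and required 10 RPM in only 2 libraries. The Dnmt1 KO pull-downs alone met that filter for the 5 members, so calls within the subsets are not counted here. *Mir214* stood at 6.07, 5.79, 0 and 0.434 RPM in the Dnmt1 KO pull-downs and at 0.0919, 0.435, 0 and 0 RPM in control, so both genotypes held little of it. The summed fibroblast and stroma list, however, ran from 14760 to 29770 RPM in Dnmt1 KO and from 6193 to 14780 RPM in control, with 1 of 3 tested called higher (*Mir143*, 1.13 ± 0.149). Both tested markers of the blood list were also called higher, at 1.41 each. The part of such cells in the pull-down levels was not tested. A "none" library of Dnmt1 KO held 12 reads of *Mir540* among 9830, or 1221 RPM, beside a mean of 2437 RPM in the pull-downs, and the part of background binding in the pull-down levels was not tested either.

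**Figure D5:**
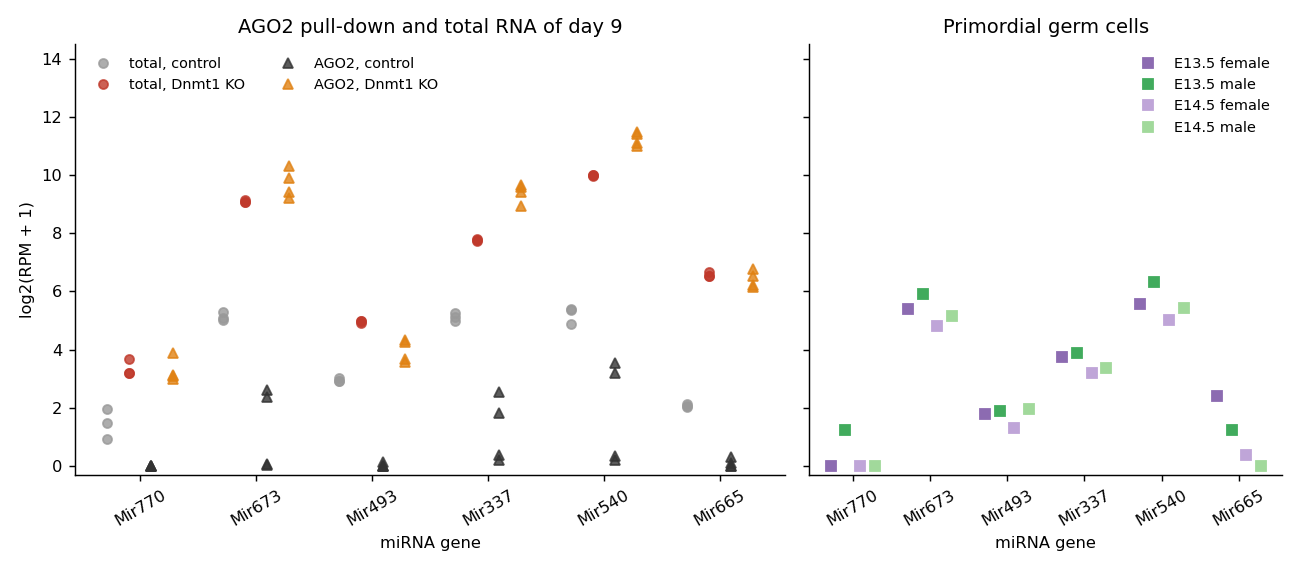
Level of each member as log2(RPM + 1): on the left in total RNA of day 9 (circles, 3 libraries per genotype) and in AGO2 pull-downs (triangles, 4 per genotype), on the right in the 4 PGC libraries (squares, 1 per sex and stage). Dnmt1 KO pull-downs lie above Dnmt1 KO total RNA for *Mir673*, *Mir337* and *Mir540* and below it for *Mir493*, while control pull-downs lie below control total RNA for all 6.

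Against total RNA of day 9, the pull-down differed in nearly all features. In Dnmt1 KO 94.8% of 1564 features were called in either direction and the median over all features was −2.40 on the log2 scale, so the values are to be read against that shift. In plain RPM, *Mir337* was 3.16-fold, *Mir540* 2.39-fold and *Mir673* 1.60-fold the total RNA level in Dnmt1 KO, without overlap (23.5% of all features lay above total RNA in this way), whereas *Mir665* (0.914) and *Mir770* (0.963) overlapped and *Mir493* was lower (0.501). The fit called 4 of the 5 tested higher (24.1% of all features called higher): *Mir337* (2.81 ± 0.52), *Mir540* (2.44 ± 0.749), *Mir673* (1.80 ± 0.645) and *Mir665* (1.03 ± 0.235), with *Mir493* at 0.14 ± 0.181 (adjusted p = 0.45). The result for *Mir493* turned on the scaling and the filter: it was called higher with median-ratio size factors (1.27, adjusted p = 1.52e-05), with TMM factors from features outside Dlk1-Dio3 (0.75, adjusted p = 0.00205), without a filter (0.81, adjusted p = 0.00486) and with a filter at 1 RPM (0.575, adjusted p = 0.024). With library totals as the only scaling, 2 were called, *Mir337* higher and *Mir493* lower (−0.99), and the value of *Mir665* was −0.15.

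In control cells the pull-down was lower than total RNA for all 5 tested (73.1% of all features called lower), from −2.70 ± 0.645 for *Mir673* to −1.35 ± 0.235 for *Mir665*, where the median over all features was −2.43. Values of members below 1 RPM are limited by the pseudocount. The ratio of the means was 0.132 for *Mir540*, 0.0687 for *Mir673*, 0.0583 for *Mir337*, 0.0248 for *Mir665* and 0.00342 for *Mir493* (2 reads in the pull-down), and for *Mir770* it was at most 0.0204. The calls depended on the fit: without a filter 2 were called, and with only these groups fitted none of the 3 tested was (*Mir673* −0.79, *Mir337* −0.64 and *Mir540* −0.090). Of the 5 fibroblast and stroma markers tested, 3 were called lower and 1 higher in the pull-down in each genotype. *Mir214* was among the lower (−6.66 in control and −5.64 in Dnmt1 KO), and *Mir21* was the higher (1.11 and 0.788). Both tested blood markers were called higher in each genotype. Of the 12 ESC miRNAs, 9 were called higher in control and 11 in Dnmt1 KO. Pull-down and total RNA are different preparations, and what binding and preparation each contribute cannot be told apart. Among reads over *Meg3* in the Dnmt1 KO pull-down, 155 of 157 (98.7%) lay in *Mir770*, compared with 44.6% in total RNA of day 9.

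In all 4 PGC libraries *Mir540* was the most abundant member, ahead of *Mir673* and then *Mir337*, at low levels. Control ESCs had another order on some days. *Mir673* led on day 1 (mean 44.9 RPM against 36.4 RPM for *Mir540*). On day 11 *Mir337* and *Mir673* (19.9 RPM each) stood above *Mir540* (11.4 RPM). The sum of the 6 was 107 RPM at E13.5 in the female and 158.5 RPM in the male library, and 68.4 RPM and 89.4 RPM at E14.5, where control ESCs averaged 39.1 to 118 RPM on days 1 to 11. *Mir540* gave 46.2, 79.6, 31.1 and 42.7 RPM and *Mir673* 41.6, 59.8, 27.4 and 34.6 RPM in the same order of libraries. With 1 library per sex and stage, no test was made. R1-suffixed namesakes of 3 of these libraries gave sums of 314 RPM (36 of 114631 reads, E13.5 female), 0 RPM (of 60317 reads, E13.5 male) and 146 RPM (194 of 1328606 reads, E14.5 male), so the level per library is uncertain. *Mir337* held 8.15 to 13.8 RPM, *Mir493* 1.46 to 2.88 RPM and *Mir665* 0 to 4.26 RPM, and *Mir770* had 4 reads in the male E13.5 library and none in the others.

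*Mir540* took 43.2 to 50.2%, *Mir673* 37.7 to 40% and *Mir337* 8.69 to 11.9% of the signal of the 6 in the 4 PGC libraries. *Mir337* took a smaller share than in any control ESC group of days 1 to 11 (22.0 to 34.1%), a difference with no replicates on the PGC side. Its share in PGCs overlapped that in Dnmt1 KO ESCs of days 6 to 25 (group means of 10.9 to 14.8%). The fibroblast and stroma list summed to 1735 to 2605 RPM in PGCs, lower than in any ESC library of total RNA, with *Mir214* at 2.31 to 13.4 RPM.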

How the data were processed

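Small RNA was sequenced in 83 libraries. According to the study's methods, the authors trimmed reads (Trim Galore 0.3.5 in the submitters' processing notes), kept 20 to 24 nt, mapped them to NCBIM37 with Bowtie2 (2.2.9) and quantified features in SeqMonk; the deposited values are RPKM, although the file is titled as counts. The authors called miRNAs with DESeq2 and SeqMonk's intensity filter; that was not repeated. Use of strand by the counting step is not given in the sources used here.

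RPM was RPKM times feature span in kilobases. Dividing RPM by the value of 1 read gave whole numbers (tolerance 0.05) for 100% of values, hence reads and totals. In R1-suffixed time course libraries 95.4 to 96.9% of read numbers were even; they served as an alternative. Features with at least 10 RPM in at least 3 libraries were tested with limma 3.58.1 (R 4.3.3, limma-trend). The scale was log2 of RPM with a pseudocount of 1, TMM-scaled by own code (30% and 5% trims), two-sided, with Benjamini-Hochberg adjustment over all features of a comparison and a threshold of 0.05. The 36 time course libraries shared a fit, as did the 8 AGO2 libraries, and the latter with day 9. The fits were tested on simulated data. Intervals cover counting error only, at 95%, and a count of 0 allows 3 reads. Python 3.11.15 with pandas 2.3.3 and matplotlib 3.10.9 was used.

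Named were the 6 members, 6 hosts, the smallest and largest change of each neighbour list, the features most alike, and markers. Members and lists were chosen with earlier results of these data known. Replicate numbers did not pair time course libraries (correlations of deviations at most 0.0468 between genotypes within a day), but paired AGO2 libraries (0.194 to 0.386 over 4 pairs); blocking changed no call there. None of 48 replicate pairs differed by sampling noise alone (chi-square over degrees of freedom at least 2.14). All 83 columns were mapped. Alternatives covered scaling, filter, pseudocount, voom on the reads, replicate block, libraries and leaving out each library.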

Additional observations from a re-analysis of the deposited data

Results flagged for a closer look

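The effect of Dnmt1 loss differed between days 1 and 11 for all 6 miRNA genes by the interaction test, with changes of 2.07 (*Mir770*), 5.45 (*Mir673*), 1.75 (*Mir493*), 3.75 (*Mir337*), 5.50 (*Mir540*) and 5.30 (*Mir665*) on the log2 scale. The call of *Mir770* was lost without 1 control library of day 1 (adjusted p = 0.0902) and under several other settings. That of *Mir493* was lost with the R1-suffixed libraries (adjusted p = 0.695). Among the AGO2 pull-downs, 2 of 11 sets of 4 libraries met Dixon's criterion for a library far from the other 3. These were *Mir770* in Dnmt1 KO, with 13.93 RPM in replicate 3 against 6.94 to 7.72 RPM in the others, and *Mir493* in control, with 0.0919 RPM (2 reads) in replicate 1 and none in the others. Any read meets the criterion where the other 3 libraries hold none, so the latter says nothing about that library; among sets without such zeros chance alone meets it in about 1 in 20.

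The "none" library of Dnmt1 KO, which no comparison used, held 12 reads of *Mir540* among 9830 (1221 RPM, Wilson 95% interval 698 to 2133), together with 1 read each of *Mir673* and *Mir337*. The "none" library of control held 1 read of *Mir540* among 57155 (17.5 RPM, 3.09 to 99.1) and none of the other members. The methods mention a bead control made with cell extract but no antibody serum, and the labels do not tell whether these libraries are that control. There is 1 per genotype.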

How the results depend on the processing

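The counts of 6 members called on days 6, 9, 11 and 25, and for Dnmt1 KO between days 1 and 11, were 4 to 6 under every alternative that gave a value, and a replicate block left all 13 counts of members as they were (0 on day 1, 3 on day 3, 6 on days 6, 9, 11 and 25, 5 in AGO2), so blocking changed no call. Day 3 was the least stable: 1 call without a filter, 1 with a pseudocount of 0.5, 0 with the R1-suffixed libraries, and 1 to 2 with a library left out. On day 1 there was 1 call with a pseudocount of 5. From day 11 to day 25 in Dnmt1 KO there were 2 calls without a filter and 2 at 1 RPM in 3 libraries. Fitting only the groups compared left 3 calls in control between days 1 and 25, and 0 in control between pull-down and total RNA, in each case with 3 members tested because fewer libraries reach 10 RPM. Without a filter that last comparison gave 2 calls, and with library totals alone the one in Dnmt1 KO gave 2. Taking means of AGO2 replicates 1 and 2 and of 3 and 4 left 0, since no member reached 10 RPM in 3 of the 4 means. With 2 means required (chosen after seeing the data) all 5 were called, but the 2 Dnmt1 KO means alone meet that filter.

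Directions turned for values that were not called, with the exception of *Mir665* below. On day 1 with R1-suffixed libraries, *Mir673* came to 0.11, *Mir337* to 0.67 and *Mir540* to −0.15; with a library left out, *Mir493* ranged from −0.041 to 0.144 and *Mir665* from −0.45 to 0.10. Between days 11 and 25 in Dnmt1 KO, *Mir673* came to −0.39 without a filter and −0.34 at 1 RPM. In control *Mir770* came to 0.46 with voom. Between pull-down and total RNA in Dnmt1 KO, library totals alone turned *Mir493* (−0.99) and the called *Mir665* (−0.15); *Mir493* was called higher with median-ratio factors, TMM outside Dlk1-Dio3, no filter and 1 RPM (0.575 to 1.27). It also turned in the fit of only the 2 groups (−0.089) and with a library left out (−0.017 without replicate 1 of day 9, up to 0.36). The causes were not tested. Of 1292 alternative values of single members, 1230 kept direction and side of the threshold. Depth limits day 25 most, where 1 read is about 2 RPM, and *Mir770*, which rests on under 20 reads in most libraries.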
